A study of Rattus norvegicus with 16 samples.

Results

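Slc35e2b is a rat gene of solute carrier family 35. It is described here for a single site, called in all 6 lists of N4-acetylcytidine (ac4C) peaks from the dorsal horn of the spinal cord. Its members were found by taking the row of the RNA immunoprecipitation (RIP) table with the symbol Slc35e2b and every peak that carries the same gene identifier (ENSRNOG00000017075). The gene was chosen from measured values, namely a called peak in all 6 lists at a shared site. Its presence and place in every list are therefore a description and no support for anything else. It is 1 gene of 29990 with a peak in any list, and its 10 peaks stand among 58434 peaks in all.

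The tested animals were rats with cancer-induced bone pain (bone cancer pain), and the reference animals were normal rats. All are labelled wild type, and no strain, sex, age or time after the onset of the model is given in the labels used. Each group had 3 ac4C replicates, labelled biological, each an immunoprecipitated (IP) library with its input, and each pair gave 1 peak list. The bone cancer pain lists carry the abbreviation CFA, which also names an inflammatory pain model, while the labels say CIBP, and the groups follow the labels. A further 2 IP and 2 input libraries form the RIP, all from bone cancer pain. The labels give 1 ac4C precipitation protocol for all 16 libraries, and nothing in them names the protein or mark that the RIP antibody binds.

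As background, ac4C is cytidine with an acetyl group on the base, placed on RNA by the acetyltransferase NAT10. It is long known in ribosomal and transfer RNA, and antibody methods have also placed it in messenger RNA. Many family 35 proteins are membrane carriers of the Golgi apparatus and endoplasmic reticulum, and several bring nucleotide sugars into these compartments for glycosylation. The E subfamily, to which Slc35e2b belongs, consists of carriers whose substrates are poorly known. In the supplied gene table of assembly GRCr8, 1 rat gene bears the name Slc35e2 or a form of it, and Slc35e2b lies between Nadk, the cytosolic NAD kinase, and Cdk11b, a cyclin-dependent kinase.

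The 6 lists varied in length from 1173 to 50417 peaks, and from 899 to 1240 peaks at a false discovery rate (FDR) of at most 0.05. Bone cancer pain list 1 stood apart: in 49204 of its 50417 peaks the fold was 10.6, the p-value 0.0372 and the FDR 0.0562. Read depth is unknown for all libraries. Of 17 marker genes of spinal cord and neighbouring tissues, 11 were listed in the RIP table, among them Mbp and Mog of oligodendrocytes, Gfap and Aqp4 of astrocytes and Rbfox3 of neurons. Myh1 and Bglap of muscle and bone were not listed. The table holds genes past a threshold only, so a gene that is not listed has no measured level here.

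Slc35e2b carried 1 narrow site in both groups. It lay on the plus strand of rn6 at chr5:173046075-173046194 in bone cancer pain lists 1 and 3 and in control lists 1, 2 and 3. In bone cancer pain list 2 it lay at chr5:173046046-173046194. The site was thus 120 bases wide in 5 lists and 149 bases wide in 1, where it reached 29 bases further upstream. All 6 peaks ended at the same base and consisted of 1 exon block. The shared interval made up 80.5% of the wider peak and 100% of the others. At the FDR limit, the median exonic width was 181 bases in bone cancer pain list 1 and 180 bases in each other list, and 0.997% to 2.39% of the peaks of a list were 120 bases or narrower. The sequence of the site and its place within the transcript were not analysed here.

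Outside this site, Slc35e2b peaks were called in bone cancer pain list 1 alone. That list held 4 further peaks, which ended 21591, 21235, 13674 and 9253 bases upstream of the site and covered 149, 149, 149 and 179 exonic bases. The last 2 of these were split over 2 exon blocks. All 4 had the fold of 10.6 and the FDR of 0.0562 shared by most peaks of that list, so none passed the FDR limit.

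**Figure D1:**
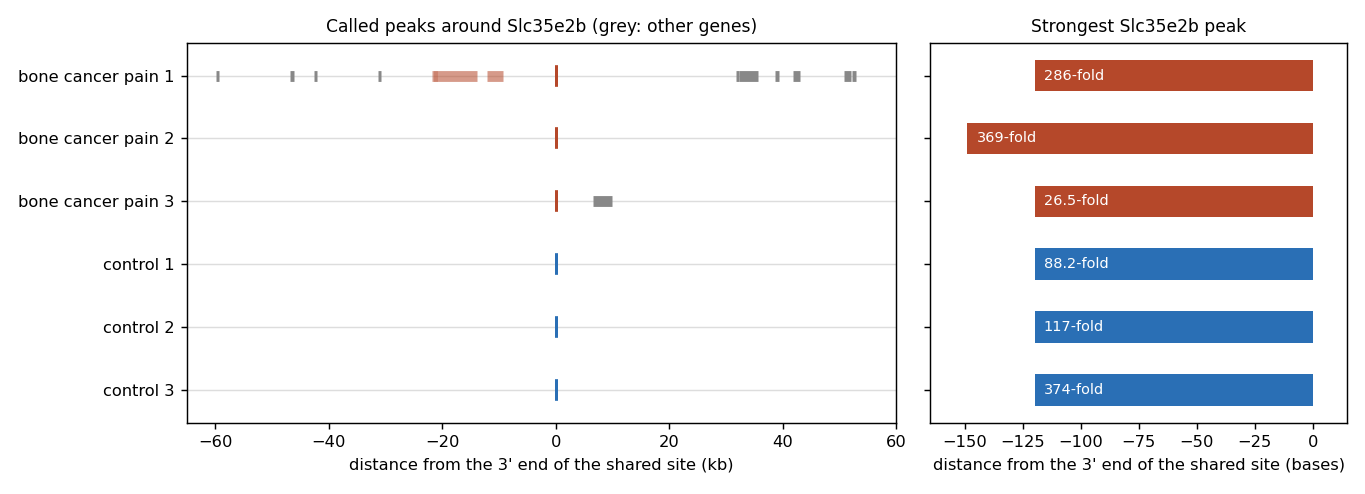
Called ac4C peaks around Slc35e2b in the 3 bone cancer pain lists (red) and the 3 control lists (blue). The left panel shows peak spans against the distance in kb from the 3' end of the shared site, with thick marks for the site, pale red spans for the 4 other Slc35e2b peaks of bone cancer pain list 1 and grey spans for peaks of other genes (spans include introns). The right panel shows the strongest peak per list in bases, with its fold: 5 peaks are 120 bases wide, the one in bone cancer pain list 2 is 149, and all end together.

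The number of Slc35e2b peaks was 5, 1 and 1 in bone cancer pain lists 1, 2 and 3, and 1 in each of the 3 control lists. The groups overlapped, with means of 2.33 ± 2.31 in bone cancer pain and 1 ± 0 in controls (SD, n = 3 each). Exonic bases under peaks numbered 746, 149 and 120 in bone cancer pain and 120 in each control list. The difference in mean log2 bases, bone cancer pain minus control, was 0.98. Both measures count the called peaks for which the gene was picked, and most of their values are tied. A two-sided exact permutation test therefore allowed no p other than 1 for the number of peaks and none below 0.4 for the bases, and these were the values obtained. The tests could not show a difference, and the numbers are a description. Without bone cancer pain list 1 the peak numbers were equal in the groups, and the difference in log2 bases was 0.16. With the FDR limit it was 0.10, set by the 29 additional bases of list 2.

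The fold enrichment of the site, the authors' own ratio of IP over input for each peak, varied widely within each group. It was 286, 369 and 26.5 in bone cancer pain lists 1, 2 and 3, and 88.2, 117 and 374 in control lists 1, 2 and 3. The lowest value of all came from bone cancer pain 3 and the highest from control 3, so the groups overlapped. The highest value exceeded the lowest 13.9 times within bone cancer pain and 4.24 times within controls. Geometric means were 141 in bone cancer pain and 157 in controls, with log2 means of 7.14 ± 2.1 and 7.29 ± 1.10 (SD, n = 3 each). How the fold of a peak was scaled is not stated, and each list came from its own pair, so no test between lists was run.

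The caller's significance followed a like order. The negative log10 of the p-value was 45.3, 346 and 7.85 in bone cancer pain lists 1, 2 and 3, and 29.6, 26.2 and 103 in control lists 1, 2 and 3. The weakest call, bone cancer pain 3, still had an FDR of 5.75e-06, which is far inside the limit of 0.05. In bone cancer pain 2 the FDR was listed as 0.

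Within its own list the site stood near the top in 4 lists. Among peaks with an FDR of at most 0.05, ordered by fold from the highest, it was number 11 of 919, number 4 of 1240 and number 454 of 899 in bone cancer pain lists 1, 2 and 3. In control lists 1, 2 and 3 it was number 121 of 916, number 21 of 1074 and number 6 of 1003. Of the peaks of each list, 98.6%, 99.7% and 43.5% had a smaller fold in bone cancer pain and 86.0%, 98.0% and 99.4% in controls. In bone cancer pain 3 the site lay just below the median peak, at 0.923 of the list's median fold, whereas elsewhere it was 5.65 to 17.7 times the median.

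By p-value the standing was lower in every list. The site was number 87, 5 and 682 in bone cancer pain lists 1, 2 and 3, and number 335, 96 and 32 in control lists 1, 2 and 3. On chromosome 5, where 51 to 78 peaks per list passed the limit, it had the largest fold in bone cancer pain 1, bone cancer pain 2 and control 3. It was number 35 on that chromosome in bone cancer pain 3, number 7 in control 1 and number 3 in control 2.

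**Figure D2:**
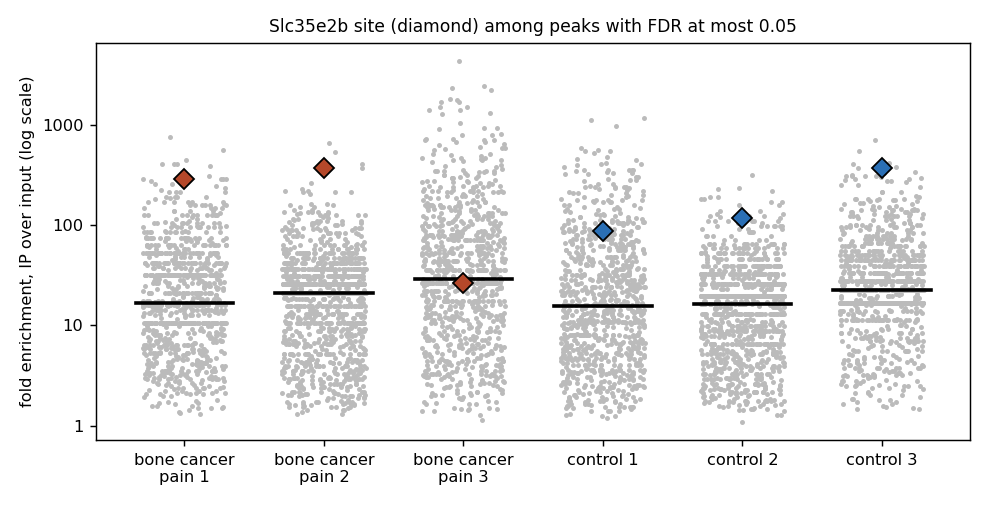
Fold enrichment of IP over input (log scale) of every peak with an FDR of at most 0.05 in each list (grey points), with the median of the list (black line) and the Slc35e2b site (diamond; red bone cancer pain, blue control). The site lies far above the median in 5 lists and just below it, at 26.5, in bone cancer pain 3.

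Part of the deposited folds fell on steps. In each list the 12 most frequent folds included a value together with 2, 3 and 4 times that value (within 0.6%), a regularity looked for after the values were seen. The estimated step was 10.6, 5.23 and 8.83 in bone cancer pain lists 1, 2 and 3, and 8.02, 6.52 and 5.58 in control lists 1, 2 and 3. The multiples of the step among those 12 folds held 98.4%, 69.0% and 31.5% of all peaks in bone cancer pain lists 1, 2 and 3, and 18.3%, 47.7% and 58.9% in control lists 1, 2 and 3. In 3 of the 6 lists most peaks thus had a fold outside these frequent multiples. Peaks at rarer or higher multiples were not counted. No source used here says what a step stands for.

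Counted in these steps, the Slc35e2b site stood at 27.0, 70.6 and 3.0 in bone cancer pain lists 1, 2 and 3, and at 11.0, 17.9 and 67.0 in control lists 1, 2 and 3. In bone cancer pain 2 it was not at a whole step. The fold of 26.5 in bone cancer pain 3, at 3 steps, was the second most frequent fold of that list and was shared by 55 of its 1173 peaks. In the other lists 1 to 8 peaks had the same fold as the site. The 4 further Slc35e2b peaks of bone cancer pain list 1, at 10.6, stood at 1 step.

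Few intervals recurred from list to list as this one did. The gene was chosen for its shared site, so this recurrence is a description and no support for anything else. With the FDR limit there were 5968 distinct peak intervals, taken as equal only when chromosome, strand, gene and every block matched, and 98.9% of them occurred in 1 list. The interval of Slc35e2b occurred in 5 lists. A single interval, 118 bases wide and in a gene without a symbol in the files, occurred in 6 lists, and 2 more, likewise in genes without a symbol, occurred in 4. Without the limit, 58236 intervals gave 8 that occurred in at least 4 lists, and Slc35e2b was again the 1 named gene among them. Across their lists, folds at the other 7 intervals spanned 1.19 to 186. Names exist here only for genes of the RIP table. A gene without a name had either no row there or a row without a symbol.

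A peak in every list was rare among genes as well. With the FDR limit, 14 of the 3805 genes with a peak had one in all 6 lists (0.368%), and as deposited 30 of 29990 had one (0.10%). These shares were part of how Slc35e2b was picked and are given as a setting only. Under the limit, 9 of the 14 genes had a symbol. Slc35e2b was among 6 of the 14 that had exactly 1 peak in each list, and the same 6 had strongest peaks that overlapped in all lists. The other 8 named genes had strongest peaks at different places, spread over up to 183904 bases in Syne1, a giant nuclear envelope protein.

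Among these 14 genes, Slc35e2b had the highest minimum and the next to highest geometric mean. Its lowest fold over the 6 lists, 26.5, compared with a median lowest fold of 3.24 for the other 13. Usp34, a large deubiquitinase, came next with a lowest fold of 16.3. The folds of Usp34 were 37.0, 533 and 42.4 in bone cancer pain lists 1, 2 and 3, and 106, 16.3 and 24.2 in control lists 1, 2 and 3. The geometric mean was 149 for Slc35e2b and 185 for the 1 gene above it, which has no symbol in the files. Its spread between lists was ordinary for the set, with an SD of log2 fold of 1.50 against a median of 1.73 for the other 13.

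**Figure D3:**
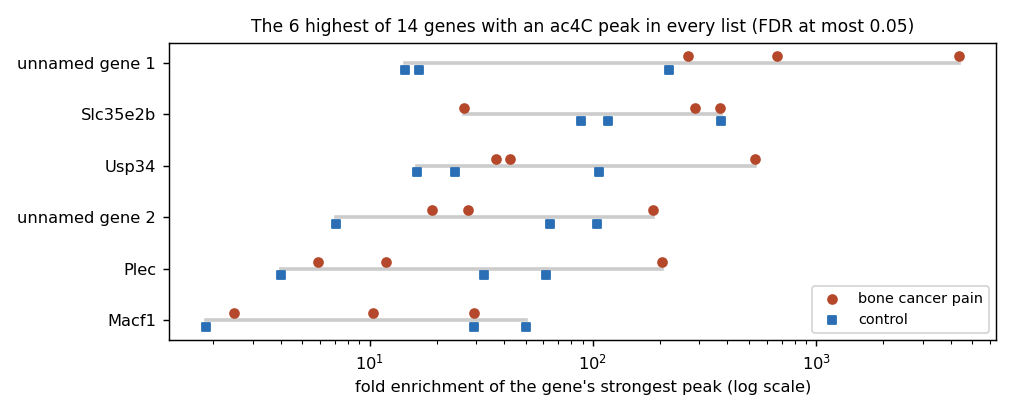
Fold enrichment of the strongest peak (log scale) in each list for the 6 genes of highest geometric mean among the 14 with a peak in every list at an FDR of at most 0.05; circles are the 3 bone cancer pain lists and squares the 3 control lists. Slc35e2b runs from 26.5 to 374, with the points of both groups mixed, and unnamed genes have no symbol in the files.

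The named genes whose log2 folds ran most like those of Slc35e2b over the 6 lists, as deposited, were Kif5a, Ank3 and Myo9a. Kif5a, a neuronal kinesin motor, had a Pearson r of 0.84 over 6 lists. Its strongest peak had a fold of 10.6, 7.21 and 1.94 in bone cancer pain lists 1, 2 and 3, and of 4.84, 2.07 and 15.6 in control lists 1, 2 and 3. Like Slc35e2b, it was lowest in bone cancer pain 3 and highest in control 3, at far smaller folds. Ank3, the scaffold of the axon initial segment, had r = 0.71, and Myo9a, an unconventional myosin, had r = 0.67, each over 6 lists. With the FDR limit the order was Syne1 (r = 0.96), Kif5a (r = 0.80) and Plec, a cytoskeletal linker (r = 0.51). As deposited, Syne1 had r = 0.57. Its strongest peak in bone cancer pain 3 had a fold of 13.3 as deposited and 2.81 with the limit. The 6 points of each comparison may share a scaling of their lists, which is not stated, and these values are descriptions.

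Near the site, most peaks of other genes came from bone cancer pain list 1, which held 50417 of the 58434 peaks of all lists. Within 100 kb on either side, 12 peaks of other genes were listed, and 11 of them were the 10.6-fold peaks of bone cancer pain list 1. They included 3 peaks of Nadk upstream, 1 peak of Cdk11b downstream and 4 peaks on the minus strand of Mib2, a ubiquitin ligase. The remaining peak, in bone cancer pain 3, was the single one past the FDR limit. It belonged to Cdk11b, lay 6580 bases downstream on the plus strand at chr5:173052775-173056042 over 3 exon blocks, and had a fold of 11.0 and an FDR of 0.000229. The nearest minus-strand peak of any list was 32395 bases from the site.

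In the RIP from bone cancer pain, Slc35e2b was higher in IP than in input, as is every gene of that table by its threshold. Its normalised signal was 10.4 and 9.05 in IP libraries 1 and 2, against 1.82 and 2.1 in input libraries 1 and 2, or 9.74 ± 0.969 and 1.96 ± 0.198 (SD, n = 2 each). Both IP libraries lay above both inputs. The authors' deposited table gives a log2 fold of 2.31 (p-value 2.01e-28, FDR 6.41e-28). The pairs differed, with 5.73 times the input in pair 1 and 4.32 times in pair 2, or 2.52 and 2.11 on the log2 scale. This gap of 0.41 was larger than that of 70.6% of the 8671 genes.

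Relative to the other genes of the table, this enrichment was ordinary. The median log2 fold in the authors' deposited table was 2.40, and 42.5% of genes had a lower value than Slc35e2b. Pair by pair, 55.5% of genes were lower in pair 1 and 30.5% in pair 2. Of the 9 named genes with an ac4C peak in every list under the FDR limit, 2 had a lower RIP log2 fold than Slc35e2b in the authors' deposited table. These 9 ranged from 1.82 for Plec to 2.86 for Macf1, a crosslinker of microtubules and actin.

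The signal values of the 4 libraries were close to unique to each gene, with 8365 to 8601 distinct values of 8671 at 6 decimals. One read therefore does not count the same for every gene, but whether the divisor is length is not stated, so a difference in signal between genes cannot be read as a difference in abundance. The genes with the most similar signals over the 4 libraries were Gtf2a1, a general transcription factor subunit, Jarid2, a subunit of the Polycomb complex PRC2, and Plxna1, a semaphorin receptor. Their Euclidean distances from Slc35e2b in log2 signal over the 4 libraries were 0.066, 0.107 and 0.116.

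Of the SLC35 family, 19 genes were in the RIP table, Slc35e2b included, and they divided evenly about the middle of the table. The family median log2 fold was 2.44, against 2.40 for all genes, with 10 members above the median of the table and 9 below it. Without Slc35e2b the median of the other 18 was 2.47. Slc35e2b was number 12 of 19. These values come from the authors' deposited table.

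Slc35b2, which in human cells carries the sulfate donor PAPS into the Golgi, had the highest log2 fold in the authors' deposited table, 3.35. Slc35b1, an ATP and ADP exchanger of the endoplasmic reticulum in human cells, had 3.08. Near the middle lay Slc35c1, the GDP-fucose carrier, at 2.36, Slc35a2, the UDP-galactose carrier, at 2.23 and Slc35a1, the CMP-sialic acid carrier, at 2.20. Slc35d2 had 1.92, and Slc35f1 and Slc35d3 had the lowest folds at 1.57 and 1.56.

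The closest relatives of Slc35e2b, the other E subfamily members, enclosed it. In the authors' deposited table, Slc35e3 had a log2 fold of 3.15, Slc35e4 of 2.44 and Slc35e1 of 2.19. IP signal was 19.1 and 20.9 for Slc35e3, 9.63 and 8.05 for Slc35e4 and 8.90 and 13.7 for Slc35e1 in libraries 1 and 2. Input signal was 2.26 and 2.23 for Slc35e3, 1.85 and 1.41 for Slc35e4 and 2.5 and 2.45 for Slc35e1. The remaining members, Slc35f3, Slc35f6, Slc35b4, Slc35a4, Slc35f5, Slc35a5 and Slc35c2, ran from 3.14 for Slc35f3 to 2.07 for Slc35c2.

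**Figure D4:**
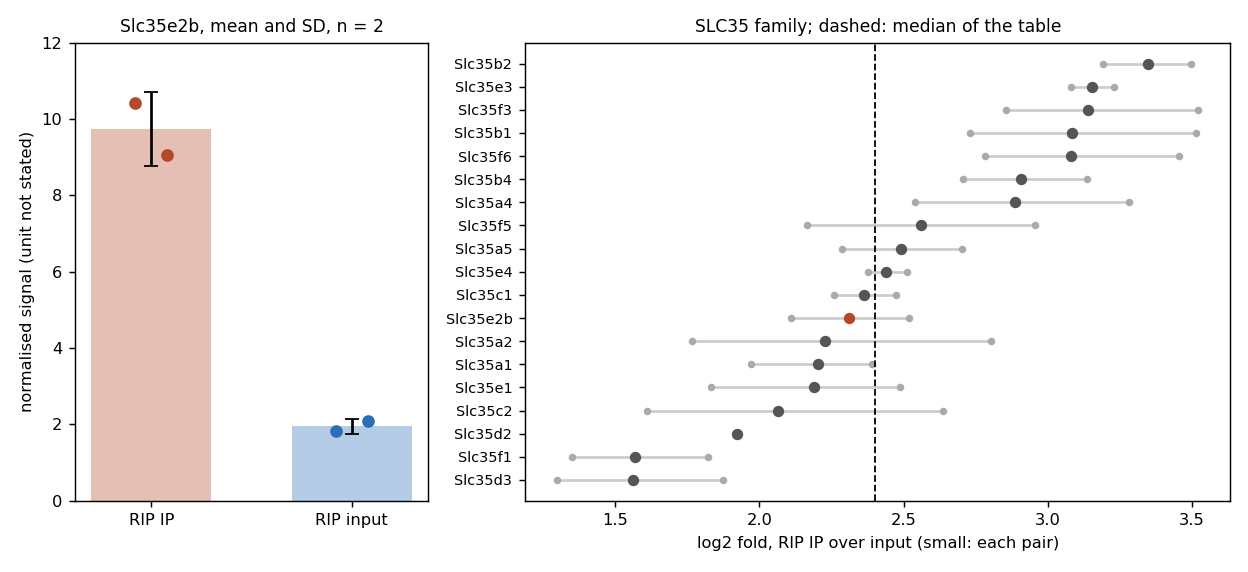
Left, normalised signal of Slc35e2b in the RIP IP and input libraries of bone cancer pain (points), with the mean (bar) and SD (line, n = 2 each). Right, the deposited log2 fold (IP over input) for the 19 SLC35 genes (large points, Slc35e2b in red), with each IP and input pair (small points) and the median of the 8671 genes at 2.40 (dashed line); Slc35e2b lies at 2.31, with its pairs on either side of the line.

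Among the 19 family genes, an ac4C peak in more than 1 list past the FDR limit was seen for Slc35e2b alone, which was picked for that. As deposited, all 19 had a peak in at least 1 list, against 90.4% of the genes of the RIP table. Each of the 19 had one in bone cancer pain list 1, against 81.1% of the table in that list. With the FDR limit 5 of 19 had a peak in any list, against 36.8% of the table. Besides Slc35e2b these were Slc35b2 in bone cancer pain 3, Slc35d2 and Slc35f3 in control 1, and Slc35a5 in control 2, each with 1 peak in 1 list. The Slc35b2 peak, at chr9:17826245-17826942 on the minus strand, had a fold of 243. The Slc35d2 peak, at chr17:1619019-1619196 on the minus strand, had a fold of 80.1, and the Slc35a5 peak, at chr11:60634403-60634582 on the plus strand, had a fold of 39.1. The Slc35f3 peak had a fold of 8.01 and spanned introns, from chr19:59261523 to 59304624 with 150 exonic bases. In the list where it was called, Slc35b2 exceeded Slc35e2b (243 against 26.5), while Slc35d2 and Slc35f3 in control 1 and Slc35a5 in control 2 were below it (88.2 and 117). Under the limit the E subfamily genes Slc35e1, Slc35e3 and Slc35e4 had no peak in any list, and their 8 peaks as deposited were all in bone cancer pain list 1 with a fold of 10.6.

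Over all genes of the RIP table, 5476 of 8671 had no peak past the FDR limit, 2106 had one in 1 list, 760 in 2, 224 in 3, 75 in 4, 21 in 5 and 9 in 6. Slc35e2b is 1 of those 9.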

How the data were processed

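RNA from the dorsal horn of rat spinal cord was measured in 16 libraries. The submitters' processing notes name, without roles, DESeq2, featureCounts 1.6.3, HOMER 4.10.4, HISAT2 2.1.0, cutadapt 2.5 and build rn6. Which tool called the peaks is not stated. Each of 6 peak lists, 1 per IP and input pair, gives a fold enrichment (a ratio made by the authors) and a p-value, stored as a score. Per the file headers, each list also gives log10 values of p and FDR. The deposited RIP table holds the authors' log2 fold, p-value and FDR per gene and 4 normalised signal values of unstated normalisation. It lists only genes with a log2 fold above 1 (largest p-value 0.0488), so IP was not tested against input.

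Every deposited peak was used, and an FDR of at most 0.05 was the alternative limit. Starts are given counted from 1. Peaks overlapped when exon blocks shared at least 1 base on the same strand. The exact permutation tests (scipy 1.17.1, Python 3.11.15) compared numbers of peaks and log2 bases per list. Their code was checked on a fixed example without ties whose p-value is known. The gene, the SLC35 list (symbols Slc35a to Slc35f with a number) and the tests were chosen with earlier results of these data known. Genes were named by that list, by likeness of folds or signals to Slc35e2b (3 genes each), and within 100 kb of the site. No source used here says whether a replicate is 1 rat, so the values describe these samples and not a spread between rats. The permutation p-values were limited by ties and do not measure that spread.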

Additional observations from a re-analysis of the deposited data

How the results depend on the processing

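The site was shared by 6 lists at an overlap of 1 base, at an overlap of 50% of each peak, at an FDR of at most 0.05 and on either strand, and by 5 lists when start and end had to be identical. The difference in mean peak number (bone cancer pain minus control, 1.33 as deposited) was 0 with the FDR limit and 0 with a fold above 20, and ranged from 0 to 2.0 when single lists were left out; it was 0 without bone cancer pain list 1. The difference in log2 bases (0.98) was 0.10 with the FDR limit and with a fold above 20, and ranged from 0.16 to 1.47 without single lists. With a replicate block, pairing lists by number, the differences are the same (1.33 and 0.98), and tied values leave no informative p; the labels give no reason to pair the lists. Taking the peak with the smallest p-value gave the same site in all 6 lists. In control 1 the share of peaks below the site was 89.4% by fold and 72.1% by p-value. The RIP log2 fold of 2.31 was 1.86 with 1 added to each signal and 2.11 to 2.52 without single pairs. The family median minus the table median, 0.037 log2, changed sign under other settings: it was -0.18 with 1 added, 0.27 without pair 1, -0.073 without pair 2 and -0.070 above the median input signal, where 2 family genes were left. The number of family genes with a peak, 19 as deposited, was 5 with the FDR limit, 5 without bone cancer pain list 1 and 5 with both (the last chosen after seeing the data), and 19 without any other single list, a range of 5 to 19. Read depth is unknown, so the resolution of a fold is unknown.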
